A study of Mus musculus with 12 samples.

Results

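Cyclin-dependent kinase (CDK) inhibitors and targets of p53 were followed in cultured mouse cardiac fibroblasts with and without Smad7, as a set of 10 genes chosen by name among the 35275 genes of the count table. The set comprised 3 INK4 inhibitors (Cdkn2a, Cdkn2b and Cdkn2c), 3 Cip/Kip inhibitors (Cdkn1a, Cdkn1b and Cdkn1c) and 4 further genes known as p53 targets (Mdm2, Ccng1, Trp53inp1 and Sesn2). All 10 passed the filter on low counts, as did 15150 genes in all. The cells came from 12-week-old C57BL/6 mice with a floxed Smad7 gene and were used at passage 2, after 48 hours with an adenovirus at a multiplicity of infection of 100. Smad7-KO cells received an adenovirus that expresses Cre recombinase, and control cells a control adenovirus, which the labels describe as expressing GFP and the study's methods as empty, so that loss of Smad7 and exposure to Cre cannot be told apart. Both kinds of cell were left unstimulated or stimulated with 10 ng/ml TGF-β1, for 2 hours according to the treatment label and 4 hours according to the protocol. RNA sequencing (RNA-Seq) of polyadenylated RNA was performed on 3 libraries in each of the 4 conditions, 12 in all.

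CDK inhibitors hold back progression from G1 into S phase. INK4 proteins bind CDK4 and CDK6 and keep them from D-type cyclins, whereas Cip/Kip proteins bind cyclin-CDK complexes, chiefly those of CDK2. In both cases the retinoblastoma protein stays underphosphorylated and E2F transcription factors stay silent. Cdkn1a, which encodes p21, is both a Cip/Kip gene and the best known transcriptional target of p53, and TGF-β induces Cdkn1a and Cdkn2b in epithelial cells as part of its cytostatic program. Cultured fibroblasts accumulate the products of Cdkn2a and Cdkn1a as they approach senescence.

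Cdkn2a and Cdkn2b, the genes that differed most clearly between Smad7-KO and control cells, are neighbors on chromosome 4, on the minus strand and 11635 bases apart. Cdkn2a (chr4:89274471-89294653) has a pair of start sites, of which the upstream serves p19Arf and the downstream p16Ink4a, and Cdkn2b (chr4:89306289-89311032) encodes p15Ink4b. Their promoters are shown because these genes moved together, and the promoter at the downstream start of Cdkn1a as that of a member that did not pass the test. Each runs 5′ to 3′ from 250 bases before to 50 after the start, taken from RefSeq on GRCm38.p6, with GC boxes (GGGCGG on either strand) in capitals. The windows are chr4:89294570-89294869, chr4:89282143-89282442 and chr4:89310983-89311282 on the minus strand and chr17:29093519-29093818 on the plus strand.
Cdkn2a, p19Arf start: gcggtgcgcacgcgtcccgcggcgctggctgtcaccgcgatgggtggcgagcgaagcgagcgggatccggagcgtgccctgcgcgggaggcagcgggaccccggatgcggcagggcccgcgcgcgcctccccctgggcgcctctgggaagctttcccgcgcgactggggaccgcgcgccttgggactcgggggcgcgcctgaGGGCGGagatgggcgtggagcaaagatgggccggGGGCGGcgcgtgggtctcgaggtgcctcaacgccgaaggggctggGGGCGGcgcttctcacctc
Cdkn2a, p16Ink4a start: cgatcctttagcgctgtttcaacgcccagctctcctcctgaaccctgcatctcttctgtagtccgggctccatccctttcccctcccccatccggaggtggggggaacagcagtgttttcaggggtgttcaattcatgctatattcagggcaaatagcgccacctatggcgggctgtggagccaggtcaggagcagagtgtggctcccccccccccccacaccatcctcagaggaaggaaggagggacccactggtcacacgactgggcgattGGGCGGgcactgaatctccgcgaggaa
Cdkn2b: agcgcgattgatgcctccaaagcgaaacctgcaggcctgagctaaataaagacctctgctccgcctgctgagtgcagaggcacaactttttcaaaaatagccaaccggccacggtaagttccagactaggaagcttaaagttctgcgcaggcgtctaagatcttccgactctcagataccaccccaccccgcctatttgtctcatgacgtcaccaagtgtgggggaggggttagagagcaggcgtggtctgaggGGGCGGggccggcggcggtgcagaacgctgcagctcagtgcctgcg
Cdkn1a, downstream start: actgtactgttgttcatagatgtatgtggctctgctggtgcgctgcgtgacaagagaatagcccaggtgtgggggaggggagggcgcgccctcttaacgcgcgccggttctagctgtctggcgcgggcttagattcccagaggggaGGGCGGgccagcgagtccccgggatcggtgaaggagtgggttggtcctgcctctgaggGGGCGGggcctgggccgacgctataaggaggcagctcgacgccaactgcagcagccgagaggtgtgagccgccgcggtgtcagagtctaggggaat

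The p19Arf promoter held 3 GC boxes in 300 bases with 77% G and C and 45 CpG dinucleotides. At the p16Ink4a start there were 1 GC box, 60.3% G and C and 12 CpG, and at Cdkn2b 1 GC box, 57.7% and 18 CpG. The Cdkn1a window had 2 GC boxes, 64.7% G and C and 23 CpG. Over all 32851 promoters the medians were 52.7% and 7 CpG, and 35.7% held a GC box. The reference listed 11 promoters for 8 of the 10 genes, all but Cdkn1c and Trp53inp1. A GC box lay in 8 of the 11, and the E2F site (TTTCGCGC or TTTGGCGC) in 0, against 0.813% of all promoters. A p53 half-site lay in 3 (Mdm2, Ccng1 and the upstream start of Cdkn1a), against 8.36% of all. Both strands were searched, and the motifs did not overlap in these promoters.

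Library totals ranged from 19056916 to 25371321 counts. Smad7 was at 71.4 to 77.2 counts scaled to the TMM-normalized library size (CPM) in unstimulated controls and 28.4 to 31.1 in unstimulated Smad7-KO cells, and at 141.9 to 150.3 and 69.99 to 80.8 after TGF-β1, so that transcripts remained in the KO. The 3 unstimulated controls were the least alike, with a biological coefficient of variation of 0.335 against 0.053 to 0.137 in the other conditions, and control library 2 stood apart by its high share of short transcripts. Fibroblast markers (7 genes) summed to 839 to 1208 FPKM (counts scaled to gene length and library total) across all libraries. Of these 7, edgeR called 2 higher and 1 lower in Smad7-KO cells in both contrasts. Mean Tcf21 was 110.9 and 106.4 FPKM in unstimulated and stimulated controls, and 46.3 and 56.0 FPKM in Smad7-KO cells. The 6 macrophage markers measured summed to 7933 to 12056 in controls and 10816 to 13395 in Smad7-KO libraries, led by Lyz2. The 7 endothelial markers summed to 72.6 to 86.0 in controls and 4.95 to 6.45 in Smad7-KO libraries, with 5 of 7 called lower by edgeR in both contrasts, and 5 of 6 macrophage markers were called higher. Cardiomyocyte markers (6 genes) summed to 11.2 to 25.99 FPKM in controls and 6.86 to 8.57 in Smad7-KO libraries. Smooth muscle and pericyte markers (5) summed to 1.42 to 3.37 and 0.851 to 1.79. Epicardial and mesothelial markers (4) summed to 67.0 to 82.2 and 45.6 to 57.3. In unstimulated Smad7-KO cells edgeR called lower 2, 1 and 3 of the 3, 3 and 4 tested genes of these lists. After TGF-β1 it called 0, 1 and 1 lower, with 0 higher in either contrast. The macrophage sum thus exceeded the fibroblast sum in every library, largely through Lyz2, with group means of 7750 to 11413 FPKM. Without Lyz2 the remaining macrophage markers together had a lower mean than the fibroblast markers in controls, and a higher one in Smad7-KO cells. In bulk RNA fewer cells of a type and less RNA per cell cannot be told apart. The part of these shifts in the results below was not tested.

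Per length of transcript, Cdkn1a was the most abundant of the 10, at 262 FPKM on average over the 12 libraries. Ccng1 followed at 195 FPKM, Cdkn2a at 91.4, Mdm2 at 58.2, Trp53inp1 at 31.3 and Cdkn2b at 28.7. Sesn2 (16.8 FPKM), Cdkn1b (11.6) and Cdkn2c (7.51) were lower, and Cdkn1c was near the limit of detection at 0.878. Some neighbors in this order overlapped over the 12 libraries: Cdkn2a spanned 40.7 to 243.7 FPKM and Mdm2 41.9 to 63.4, and Cdkn2b spanned 16.4 to 50.1 and Trp53inp1 19.4 to 45.6. The order turned with genotype for these pairs. Mean Cdkn2a was below mean Mdm2 in unstimulated Smad7-KO cells (57.0 and 61.7 FPKM) and stimulated ones (50.4 and 59.2), and mean Cdkn2b above mean Trp53inp1 in unstimulated (39.4 and 29.4) and stimulated controls (35.7 and 22.2). The range of Cdkn1a (240.4 to 279.5) lay above that of Ccng1 (154.0 to 236.7).

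**Figure D1:**
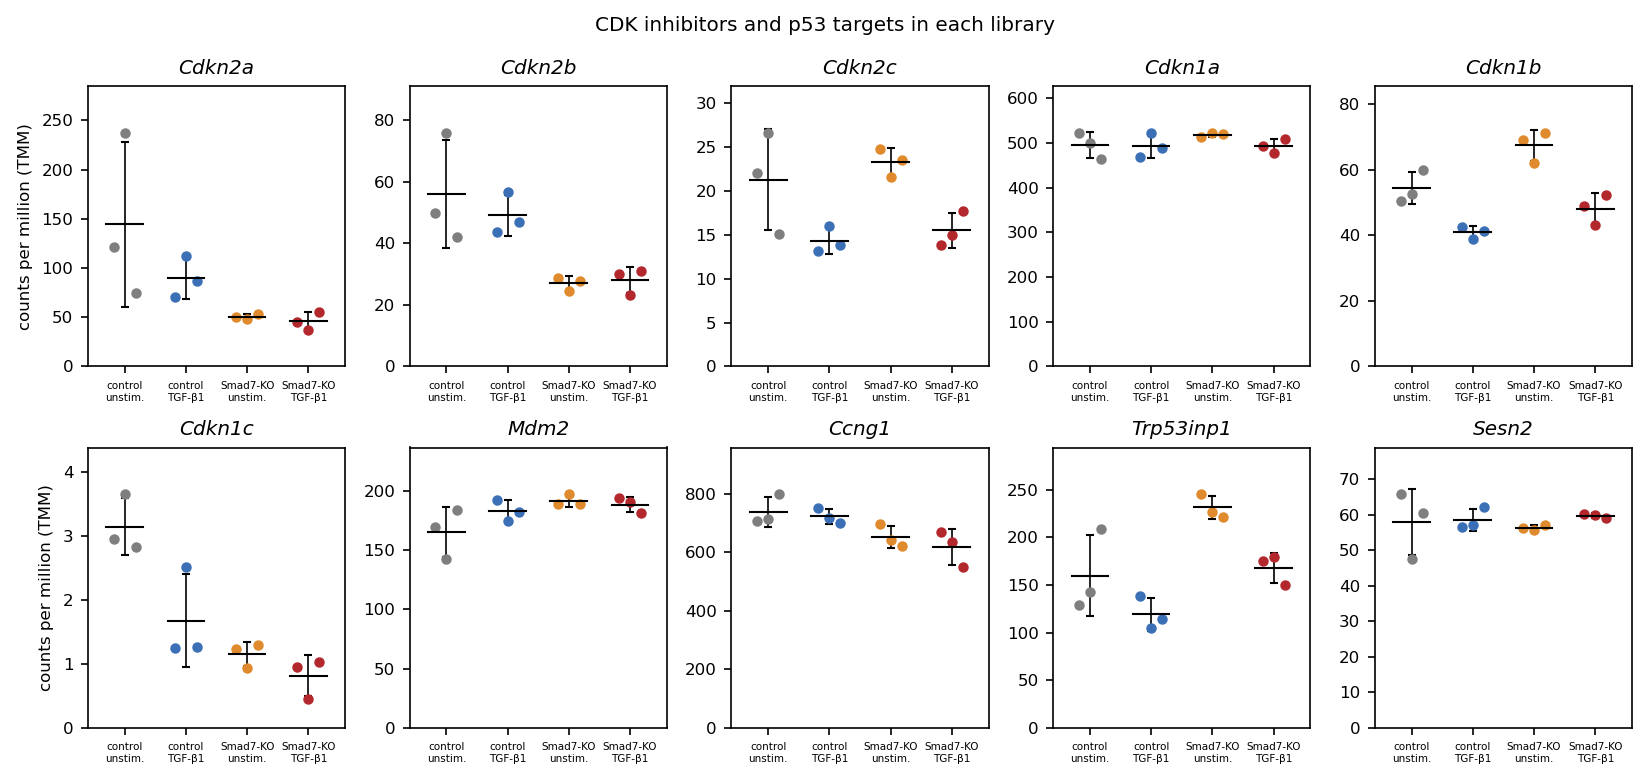
TMM-normalized CPM of each gene (y axis, from 0) in the 4 conditions (x axis), with a point for each library, a line at the mean and a bar of 1 SD (n = 3). Cdkn2a and Cdkn2b sit lower in every Smad7-KO library than in every control, while Cdkn1a stays between 464 and 523 throughout.

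Loss of Smad7 in unstimulated cells was accompanied by lower mRNA of 3 CDK inhibitor genes, Cdkn2a (p16Ink4a and p19Arf together), Cdkn2b and Cdkn1c, and by higher Trp53inp1. At an adjusted p of 0.05 or less (edgeR's quasi-likelihood test, Benjamini-Hochberg adjustment over 15150 genes), 4 of the 10 genes were called, 1 higher and 3 lower. Of all genes tested, 25.8% were called, 12.1% higher and 13.7% lower. The median log2 change of the 10 genes was 0.01, beside -0.02 over all genes. After TGF-β1 the same contrast called 1 of 10, Cdkn2b, lower, against 13% of all genes (5.72% higher, 7.23% lower), with medians of 0.01 and -0.02. The titles of the stimulated control libraries all carry the same sample number, while those of the other conditions are numbered in turn. Whether the libraries of a condition came from separate cultures cannot be told from these titles. The p-values therefore measure the spread between libraries, whatever its source. An exact permutation test of 3 against 3 cannot go below 0.1, so p-values are given from edgeR, except where DESeq2 or limma is named.

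**Figure D2:**
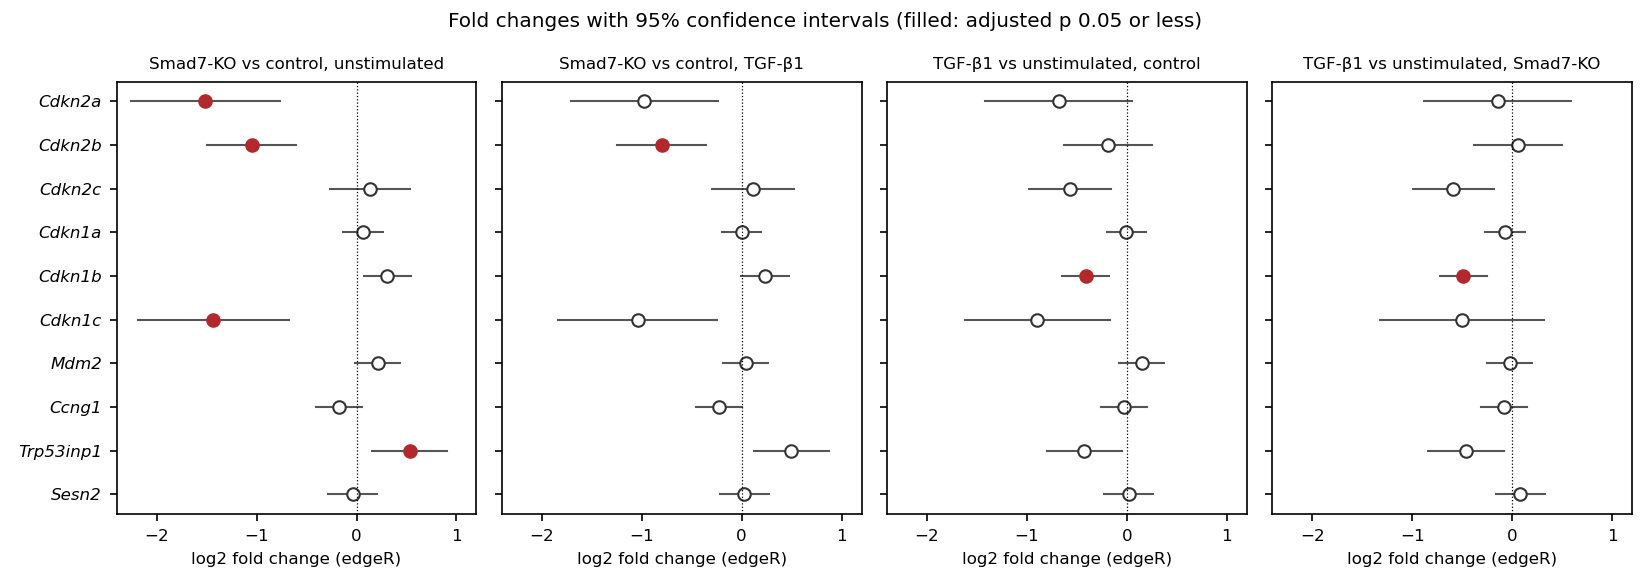
Log2 fold change (x axis) of each gene (y axis) in the 4 comparisons, with 95% confidence intervals, from edgeR. Filled points have an adjusted p of 0.05 or less: 4 genes in unstimulated Smad7-KO against control, Cdkn2b after TGF-β1, and Cdkn1b in both TGF-β1 comparisons.

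Cdkn2a, the INK4 and Arf gene, was lower in Smad7-KO cells. Its level was 121, 237 and 74.9 CPM in the 3 unstimulated controls and 50.1, 48.2 and 53.5 CPM in the 3 unstimulated Smad7-KO libraries. The groups did not overlap, but the controls spread over a wide range, with library 2 highest. The log2 change was -1.51 (SE 0.34, adjusted p = 0.0110 by edgeR), to 35.0% of control. Fitted on these 6 libraries alone, the edgeR adjusted p was 0.0775. TGF-β1-stimulated cells had 70.3, 113 and 86.8 CPM in controls and 44.8, 37.2 and 55.4 CPM in Smad7-KO libraries. Here too the groups did not overlap, and the log2 change of -0.97 (SE 0.34) missed the threshold (edgeR adjusted p = 0.0805), while DESeq2 called it (adjusted p = 0.0362). Counts are summed over the gene, so p16Ink4a and p19Arf mRNA were not separated.

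Cdkn2b moved with its neighbor. Unstimulated controls had 50.02, 76.0 and 42.2 CPM, and unstimulated Smad7-KO libraries 28.8, 24.6 and 27.9 CPM. The mean of 56.1 ± 17.7 CPM (SD, n = 3) thus compares with 27.1 ± 2.23 CPM, without overlap, and the log2 change was -1.05 (SE 0.20, edgeR adjusted p = 0.00538, or 0.0555 on these 6 libraries alone). After TGF-β1 the levels were 43.9, 56.6 and 46.9 CPM in controls and 30.2, 23.3 and 31.0 CPM in Smad7-KO libraries. This difference also left no overlap, at a log2 change of -0.80 (SE 0.20, edgeR adjusted p = 0.0242). The call after TGF-β1 rested on single libraries: without control library 2 or 3, or Smad7-KO library 1, 2 or 3, the edgeR adjusted p was 0.115, 0.0574, 0.0658, 0.108 and 0.0532. Leaving out 1 of these 6 libraries moved the log2 change to between -0.87 and -0.68, and the 10 other alternative fits all called it.

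Cdkn2c, which encodes p18Ink4c and lies elsewhere on chromosome 4, did not follow the other INK4 genes. Its levels were 22.1, 26.6 and 15.1 CPM in unstimulated controls and 24.8, 21.6 and 23.5 CPM in unstimulated Smad7-KO libraries, which overlapped. The 95% confidence interval of the log2 difference ran from -0.27 to 0.54, and after TGF-β1 from -0.29 to 0.52. Cdkn2d, the fourth INK4 gene and not a member of the set, ranged from 5.79 to 15.1 CPM over all libraries, with log2 changes of -0.27 and -0.14 (edgeR adjusted p = 0.335 and 0.690), the first of which was 0.08 with the trend on gene length described below removed.

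Among Cip/Kip genes, Cdkn1a was the steadiest of the set with the trend on gene length described below left in place. It measured 523, 500.1 and 464 CPM in unstimulated controls, 514, 522 and 521 CPM in unstimulated Smad7-KO libraries, 469, 523 and 488 CPM in stimulated controls and 494, 478 and 509 CPM in stimulated Smad7-KO libraries. Only the stimulated and unstimulated Smad7-KO libraries did not overlap, by a narrow margin. The log2 change between Smad7-KO and control was 0.07 without TGF-β1 (95% confidence interval -0.13 to 0.26) and 0.00 with it (-0.20 to 0.20).

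Cdkn1b, which encodes p27Kip1, was at 50.6, 52.7 and 60.1 CPM in unstimulated controls and 69.1, 62.1 and 71.4 CPM in unstimulated Smad7-KO libraries. The groups did not overlap, but the log2 difference of 0.31 (SE 0.11) missed the threshold (edgeR adjusted p = 0.0537). With the trend on gene length described below removed it was 0.09 (adjusted p = 0.543), and the groups overlapped, with control library 2 at 69.2 CPM and Smad7-KO libraries at 59.1 to 67.4. With TGF-β1 the values were 42.7, 39.0 and 41.3 CPM in controls and 48.9, 43.2 and 52.4 CPM in Smad7-KO libraries (log2 difference 0.23, SE 0.11, edgeR adjusted p = 0.179).

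Cdkn1c, the imprinted gene of p57Kip2, was scarce. Its counts were 66, 64 and 67 in unstimulated controls, or 2.96, 3.66 and 2.83 CPM, and 25, 22 and 30 in unstimulated Smad7-KO libraries, or 1.24, 0.944 and 1.30 CPM. No library of either group overlapped the other, and the log2 change was -1.43 (SE 0.34, edgeR adjusted p = 0.0147). Without Smad7-KO library 2 the adjusted p was 0.0655. TGF-β1-stimulated controls gave 31, 62 and 26 counts and stimulated Smad7-KO libraries 24, 10 and 22 (log2 change -1.04, SE 0.36, edgeR adjusted p = 0.0823). An antisense gene, Gm44732, overlaps Cdkn1c, and since the strand setting of the counting is not given in the sources used here, reads of the pair cannot be told apart.

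The makeup of the inhibitor pool differed between genotypes in the same direction. The INK4 sum takes all counts of Cdkn2a, so it includes any p19Arf mRNA, which does not encode a CDK inhibitor. INK4 mRNA so defined summed to 204 ± 90.9 FPKM in unstimulated controls and 86.2 ± 4.79 FPKM in unstimulated Smad7-KO cells (SD, n = 3). After TGF-β1 it summed to 143 ± 28.8 and 76.4 ± 13.4 FPKM. Cip/Kip mRNA summed to 271 ± 19.95, 289.6 ± 1.87, 272 ± 12.9 and 265 ± 9.95 FPKM in the same order, almost all of it Cdkn1a. Cdkn1a made up 55.4% ± 10.9 of the 6 inhibitors in unstimulated controls and 72.9% ± 1.21 in unstimulated Smad7-KO cells, and Cdkn2a 31.7% ± 11.1 and 15.2% ± 0.580. The mean of unstimulated controls leans on library 2, where Cdkn2a was at 243.7 FPKM, against 138.4 and 87.2 in libraries 1 and 3. FPKM keep the trend on gene length described below, and these shares were not tested.

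**Figure D3:**
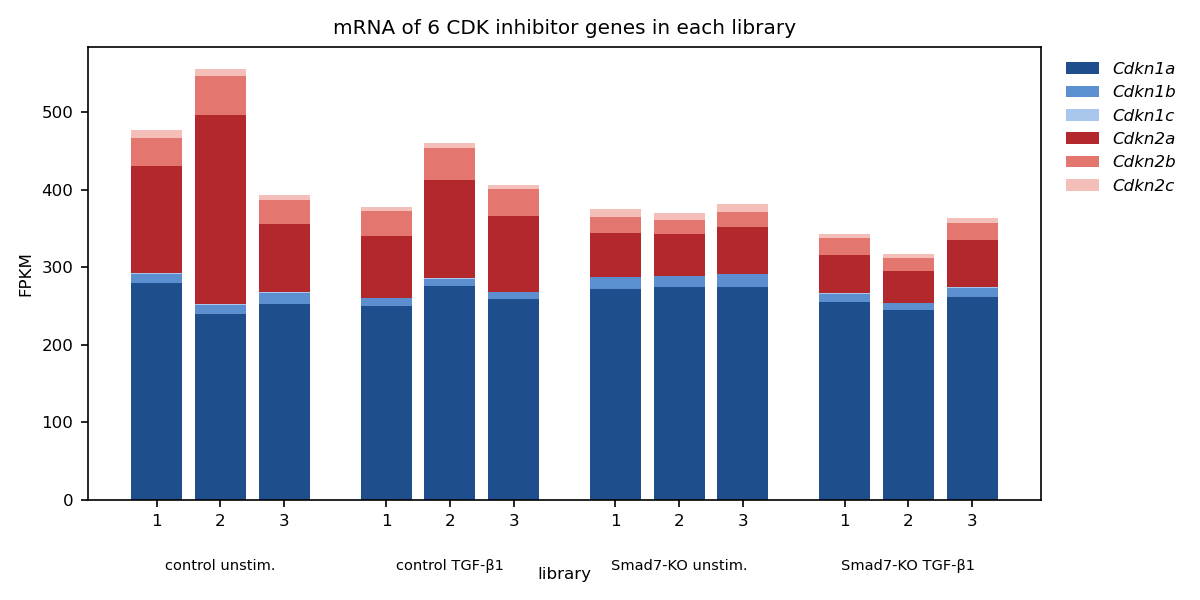
Stacked FPKM (y axis, from 0) of the 6 CDK inhibitor genes in each library (x axis, libraries 1 to 3 of each condition). The blue Cip/Kip part is nearly level, while the red INK4 part shrinks from a mean of 204 FPKM in unstimulated controls to 86.2 in unstimulated Smad7-KO cells. The INK4 part includes any p19Arf mRNA of Cdkn2a.

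The p53 targets did not move as a group. Trp53inp1, which encodes a stress protein that promotes autophagy, was at 129, 142 and 208 CPM in unstimulated controls and 245, 227 and 222 CPM in unstimulated Smad7-KO libraries. All Smad7-KO libraries were above all controls, control library 3 being the closest, and the log2 change was 0.53 (SE 0.17, edgeR adjusted p = 0.0436). The stimulated controls had 139, 105 and 114 CPM and the stimulated Smad7-KO libraries 175, 179 and 149.7 CPM, again without overlap (log2 change 0.50, SE 0.17, edgeR adjusted p = 0.0813). The unstimulated call was lost without control library 1 or 2 (edgeR adjusted p = 0.118 and 0.0946) or without Smad7-KO library 1, 2 or 3 (0.126, 0.0999 and 0.0933), and on the 6 libraries of the comparison alone (0.135). It was also lost without stimulated control library 3 or stimulated Smad7-KO library 1 or 2, which enter through the shared estimate of spread.

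Mdm2, the ubiquitin ligase that degrades p53, ranged only from 143 to 197 CPM over all 12 libraries. It was at 169, 143 and 184 CPM in unstimulated controls and 189, 197 and 189 CPM in unstimulated Smad7-KO libraries, a log2 difference of 0.21 (SE 0.10, edgeR adjusted p = 0.132). Ccng1, or cyclin G1, was at 705, 713 and 798 CPM in unstimulated controls and 696, 640.3 and 622 CPM in unstimulated Smad7-KO libraries, and at 749, 717 and 700.2 against 669, 636 and 549.9 CPM after TGF-β1. Its log2 differences of -0.18 and -0.22 (SE 0.11 each) did not pass (edgeR adjusted p = 0.209 and 0.186). Sesn2, which encodes sestrin 2, an inhibitor of mTORC1 under stress, lay between 47.5 and 65.8 CPM in every library, with 95% confidence intervals of the log2 difference of -0.29 to 0.21 and -0.22 to 0.28. Gm12981 overlaps Sesn2 on the same strand, and AC167363.2 overlaps Cdkn1a on the opposite strand.

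Gene length moved with the Smad7-KO contrast. In unstimulated cells the third of tested genes with the shortest transcripts had a median log2 change of -0.39 and the third with the longest 0.29. After TGF-β1 these medians were -0.20 and 0.17. Cdkn2a (895 bases), Cdkn2b (1393), Cdkn1a (1910) and Cdkn1c (1931) are in the shortest class, and Cdkn1b (4552) and Trp53inp1 (5432) in the longest. The trend was steepest in unstimulated control library 2, where short genes exceeded long genes by 1.09 on the log2 scale. When each library's trend was removed, 5 genes were called in unstimulated cells (1 higher, 4 lower) against 28.8% of all genes, and 3 after TGF-β1 (1 higher, 2 lower) against 23.1%. Of all genes called after TGF-β1, 44.1% were higher in Smad7-KO cells before and 56.6% after this removal, and of those called for TGF-β1 in controls 60.2% and 48.6% were higher.

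Cdkn2a and Cdkn2b remained lower in both Smad7-KO contrasts once the trend was removed. The log2 change of Cdkn2a was then -1.09 in unstimulated cells (edgeR adjusted p = 0.00305) and -0.77 after TGF-β1 (0.0220), and that of Cdkn2b -0.69 (0.00120) and -0.58 (0.00389). Cdkn1c stayed called in unstimulated cells (-1.23, edgeR adjusted p = 0.0134). Trp53inp1 dropped to 0.26 (edgeR adjusted p = 0.0902) in unstimulated cells but was called at 0.39 after TGF-β1 (0.0202). Cdkn1a was then higher (0.27, edgeR adjusted p = 0.0114) and Ccng1 lower (-0.26, 0.0470) in unstimulated Smad7-KO cells, so the level course of Cdkn1a depended on the handling of length. After TGF-β1 Cdkn1a was then at 0.17 without passing (edgeR adjusted p = 0.0945), with Smad7-KO libraries at 515 to 541 CPM and controls at 464 to 472. Without control library 2, and with the trend left in place, the unstimulated log2 change of Cdkn2a was -0.95 (edgeR adjusted p = 0.0108), of Cdkn2b -0.76 (0.00354) and of Cdkn1c -1.31 (0.0259).

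**Figure D4:**
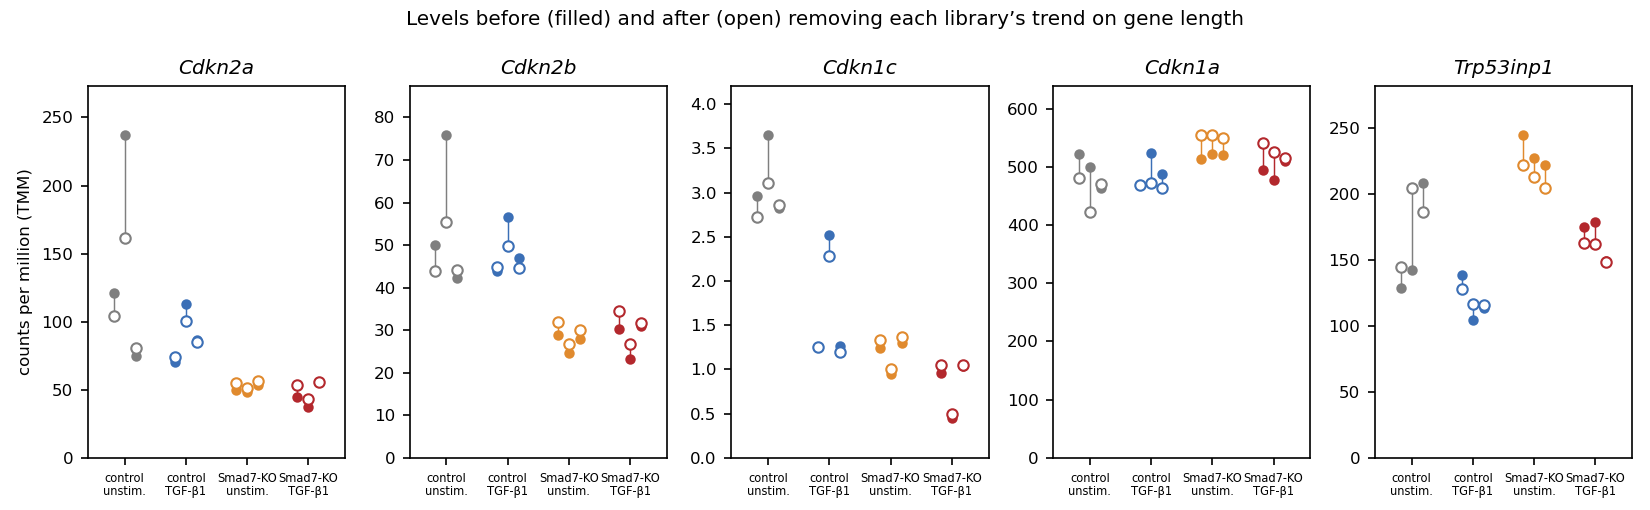
TMM-normalized CPM (y axis, from 0) of 5 genes in each library, before (filled) and after (open) each library's trend on gene length was removed, by condition (x axis). Cdkn2a in unstimulated control library 2 moves from 237 to 161.3 CPM, and Smad7-KO libraries stay below controls for Cdkn2a and Cdkn2b in both forms.

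TGF-β1 lowered Cdkn1b in both genotypes and called no other gene of the set. In controls 1 of 10 genes was called, against 8.37% of all genes (5.04% higher, 3.33% lower), and in Smad7-KO cells 1 of 10, against 10.2% (5.33% higher, 4.9% lower). The medians of the 10 genes were -0.30 and -0.11, beside -0.03 and -0.01 over all genes. Comparing the values above, Cdkn1b lay lower in every stimulated than in every unstimulated library of the same genotype. Its log2 change was -0.41 in controls (SE 0.11, edgeR adjusted p = 0.0361) and -0.49 in Smad7-KO cells (SE 0.11, adjusted p = 0.0125). In controls the call was lost without stimulated library 1, 2 or 3 (edgeR adjusted p = 0.0850, 0.119 and 0.120), without unstimulated Smad7-KO library 1, 2 or 3 or stimulated Smad7-KO library 1, and on the 6 libraries of the comparison alone (0.214). It was lost without a filter on low counts (edgeR adjusted p = 0.124) and by limma (0.0867). In Smad7-KO cells it was lost without unstimulated library 1 or 3 (0.0569 and 0.0687) or stimulated library 1 or 2 (0.0502 and 0.0729).

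Cdkn2c was lower after TGF-β1 by a like amount without passing. It was at 13.1, 16.0 and 13.8 CPM in stimulated controls and 13.8, 14.9 and 17.7 CPM in stimulated Smad7-KO libraries, and only in Smad7-KO cells were stimulated and unstimulated libraries apart. The log2 changes were -0.57 (SE 0.19, edgeR adjusted p = 0.0930) in controls and -0.59 (SE 0.19, 0.0720) in Smad7-KO cells. Trp53inp1 had log2 changes of -0.43 and -0.46 (SE 0.17 each, edgeR adjusted p = 0.183 and 0.136), and leaving out 1 library moved the first to between -0.56 and -0.18, the latter without unstimulated control library 3. Cdkn1c had log2 changes of -0.89 in controls (SE 0.33, edgeR adjusted p = 0.143), where the groups did not overlap, and -0.50 in Smad7-KO cells (SE 0.37, 0.567). The first was -1.32 and called without stimulated control library 2 (edgeR adjusted p = 0.0424). Cdkn2a had log2 changes of -0.68 in controls (SE 0.33, edgeR adjusted p = 0.284) and -0.14 in Smad7-KO cells (SE 0.34, 0.922), the first ranging from -0.13 without unstimulated control library 2 to -0.99 without library 3, where it was called (0.0197). Cdkn2c too was called in controls without that library 3 (-0.76, edgeR adjusted p = 0.00404). With the length trend removed, Cdkn1b, Cdkn2c and Trp53inp1 were called lower in controls (3 of 10, against 14.5% of all genes) and in Smad7-KO cells (3 of 10, against 16.2%).

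The cytostatic targets of TGF-β, Cdkn1a and Cdkn2b, showed no detectable rise. The 95% confidence interval of the log2 change of Cdkn1a with TGF-β1 ran from -0.20 to 0.19 in controls and from -0.27 to 0.12 in Smad7-KO cells. For Cdkn2b it ran from -0.63 to 0.25 in controls and from -0.38 to 0.50 in Smad7-KO cells. Smad7 itself, a known TGF-β target, rose by 0.97 (SE 0.09) in the same controls (edgeR adjusted p = 4.94e-05).

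Whether the TGF-β1 response of these genes differed between genotypes was tested by the interaction of genotype and stimulation. None of the 10 genes was called by edgeR, against 0.0198% of all genes (3 of 15150), and 0 of 10 had an unadjusted p under 0.05. DESeq2 also called 0 of 10. The estimate for Cdkn2a was 0.54 with a 95% confidence interval of -0.50 to 1.58, and for Cdkn2b 0.25 (-0.38 to 0.87), so sizable differences in either direction were not detectable with 3 libraries a condition.

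Upstream of these targets, p53 mRNA itself was level. Trp53 ranged from 80.4 to 103.5 CPM over the 12 libraries, with log2 changes between Smad7-KO and control of -0.12 (edgeR adjusted p = 0.377) and -0.11 (0.499). As background for the lists from here on, 12.1% of all genes rose and 13.7% fell in unstimulated Smad7-KO cells. After TGF-β1 5.72% rose and 7.23% fell. With the length trend removed, 28.8% and 23.1% were called in either direction in these 2 contrasts. Without unstimulated control library 2, 3013 and 4465 of 15510 genes were called, beside 3907 and 1962 of 15150. Of the 10 tested genes for p53 and its regulators, 2 rose in unstimulated Smad7-KO cells and 0 fell: Chek2, a checkpoint kinase (0.52), and Mdm4, an inhibitor of p53 (0.79, edgeR adjusted p = 0.0229). After TGF-β1 only Chek2 was called (0.52), with Mdm4 at 0.58 (edgeR adjusted p = 0.0956). After removal of the length trend 4 and 2 were higher and 0 lower, and Mdm4 was at 0.43 and 0.40. Of 31 other p53 targets, 3 rose and 10 fell in unstimulated Smad7-KO cells, against 12.1% and 13.7% of all genes. After TGF-β1 2 rose and 10 fell, against 5.72% and 7.23%. Perp, a desmosomal protein with a role in apoptosis, went from 12.3 to 26.7 CPM in unstimulated controls to 3.64 to 4.16 CPM in Smad7-KO libraries (log2 change -2.17, SE 0.29). Sesn1, the paralog of Sesn2, rose by 0.47 and 0.52 in the same contrasts while Sesn2 did not pass, and Dram1, an autophagy gene, rose by 0.53 and 0.40. The third that rose in unstimulated cells was Apaf1, of the apoptosome (0.68). Btg2, an antiproliferative gene, fell by 0.60 after TGF-β1. With the length trend removed the counts were 3 higher and 8 lower, and 3 higher and 10 lower, and without unstimulated control library 2 they were 3 and 8, and 2 and 14. Of all genes, TGF-β1 called 5.04% higher and 3.33% lower in controls, and 5.33% and 4.9% in Smad7-KO cells. Of these targets it called 3 higher and 4 lower in controls and 3 higher and 3 lower in Smad7-KO cells. Sesn1 was lower (-0.75 and -0.70), Sfn higher (1.11 and 1.14) and Plk2 higher (0.66 and 0.54) in both. Epha2 was the third that rose in both, and Ercc5 fell in both, with Bbc3 and Gdf15 lower in controls and Pmaip1 lower in Smad7-KO cells.

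Of 24 genes of proliferation, 9 rose, 0 fell and 15 did not pass in unstimulated Smad7-KO cells, where 12.1% of all genes rose. After TGF-β1 5 rose, 0 fell and 19 did not pass, against 5.72% higher of all genes. The medians over the 24 genes were 0.38 and 0.31, beside -0.02 in both over all genes. Mki67, a marker of cycling cells, went from 16.5 to 22.7 CPM in unstimulated controls to 41.8 to 51.8 CPM in Smad7-KO libraries, without overlap (log2 change 1.26, SE 0.15, edgeR adjusted p = 3.69e-04). Top2a, a topoisomerase of dividing cells, rose by 0.82 and Bub1b, a spindle checkpoint kinase, by 0.79. After TGF-β1 the called genes were Mki67 (1.16), Mcm3 (0.53), Top2a (0.50), Mcm6 (0.36) and Cenpf (0.70). Removal of the length trend gave 8 and 7 genes higher and 0 lower, with Mki67 at 0.68 and 0.85. After TGF-β1 Mcm6 (0.30, edgeR adjusted p = 0.177) and Cenpf (0.39, 0.0749) were then not called, while other genes of the list were. Without unstimulated control library 2, 10 were higher and 0 lower in either contrast. Calls over all genes also changed then, from 3907 to 3013 in unstimulated cells and from 1962 to 4465 after TGF-β1. TGF-β1 itself raised 4 genes in controls and 3 in Smad7-KO cells, the replication genes Mcm6, Mcm3 and Rrm2 in both and Tyms in controls, and 1 fell in Smad7-KO cells, Cenpa (-0.92). The relation of these levels to those of the inhibitors was not tested.

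The kinases and cyclins that these inhibitors bind, and the Rb and E2F proteins beyond them, were taken as 2 lists. Of all genes, 12.1% rose and 13.7% fell in unstimulated Smad7-KO cells, and 5.72% and 7.23% after TGF-β1. Shares under the other settings are those given above. Of 12 CDKs and cyclins, 2 rose in unstimulated Smad7-KO cells, Ccna2 (cyclin A2, 0.79) and Cdk6 (1.36), and 0 fell, while 0 were called after TGF-β1. Removal of the length trend gave 4 higher and 1 lower in unstimulated cells, and 1 and 1 after TGF-β1, with Ccnd3 the lower in both. Without unstimulated control library 2, 1 rose and 1 fell in unstimulated cells, and 0 rose and 1 fell after TGF-β1. TGF-β1 called 0 of 12 in either genotype. INK4 proteins bind both CDK4 and CDK6. Cdk6 was at 6.86 to 27.7 CPM in unstimulated controls and 33.7 to 43.6 CPM in Smad7-KO libraries. Cdk4, the more abundant, was at 112 to 192 CPM in unstimulated controls and 111 to 116 CPM in unstimulated Smad7-KO libraries, and was not called in the reported fit. Of 11 Rb and E2F genes, 3 rose in unstimulated Smad7-KO cells (Rbl1 1.09, Rb1 0.56 and E2f2 0.88) and 4 after TGF-β1, E2f2 (0.98), E2f8 (1.198), Rb1 (0.40) and Rbl1 (0.65), with 0 lower in both. With the length trend removed 3 and 4 were higher and 0 lower, but in unstimulated cells E2f2 was not called (0.64, edgeR adjusted p = 0.0839) and Rbl2 was (0.59, adjusted p = 0.0193), with Rb1 at 0.34. TGF-β1 raised E2f4 and E2f2 in both genotypes and, in Smad7-KO cells, lowered Rb1 (-0.50). There E2f3 (0.60) rose too, giving 3 higher and 1 lower of 11, against 2 higher in controls.

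Regulators of the inhibitors were examined by lists, beside the same shares of all genes. These were 12.1% higher and 13.7% lower in unstimulated Smad7-KO cells, and 5.72% and 7.23% after TGF-β1. Of 7 genes for the turnover of Cip/Kip proteins, 1 rose in unstimulated Smad7-KO cells, Skp2 (0.87), which marks p27Kip1 for degradation, and 4 fell, Skp1a (-0.79), Cks1b (-1.09), Cops5 (-0.64) and Rbx1 (-0.86), and in the other 3 comparisons 0 were called. With the length trend removed 1 was higher and 3 lower in unstimulated cells, and 1 higher and 0 lower after TGF-β1. In unstimulated cells Rbx1 was then not called (-0.53, edgeR adjusted p = 0.0771), and Skp2 was at 0.56, Skp1a at -0.51, Cks1b at -0.69 and Cops5 at -0.49. Without unstimulated control library 2, 1 rose and 1 fell in unstimulated cells, and 1 rose and 3 fell after TGF-β1. Of 11 genes of the TGF-β cytostatic program and FoxO, 2 rose (Foxo3 0.61 and Sp1 0.91) and 5 fell in unstimulated Smad7-KO cells. Among those that fell were the inhibitors of differentiation Id1 (-3.07), Id3 (-2.39) and Id2 (-0.98), of which Id1 represses p16Ink4a in other cells, and Myc (-0.63, edgeR adjusted p = 0.0219). After TGF-β1 1 rose, Foxo3 (0.55), which encodes an activator of Cdkn1b, and 3 fell, among them Id3 (-1.04) and Myc (-0.61). Foxo3 lost both calls once the length trend was removed (0.20 and 0.39, edgeR adjusted p = 0.262 and 0.0537), and the list had 1 higher and 5 lower in unstimulated cells and 2 higher and 4 lower after TGF-β1. TGF-β1 called 1 higher and 1 lower in controls, Cdc25a (0.64) and Id3 (-1.24), and 2 higher and 1 lower in Smad7-KO cells, Id2 (1.66), Cdc25a (0.48) and Foxo3 (-0.45).

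Of 10 regulators of the INK4 locus, mainly Polycomb proteins and their antagonists, 1 rose in unstimulated Smad7-KO cells, the Polycomb gene Suz12 (0.46), and 0 were called after TGF-β1. For this and the next 2 lists, the shares of all genes were again 12.1% higher and 13.7% lower, and 5.72% and 7.23% after TGF-β1. With the length trend removed Suz12 and Kdm2b were higher (0.28 and 0.24) and Kdm6b lower (-0.36) in unstimulated cells, and Kdm6b was lower after TGF-β1 (-0.48, edgeR adjusted p = 0.00843). Without unstimulated control library 2, 2 were higher and 0 lower in either contrast. TGF-β1 called 0 in controls and lowered Cbx8 (-0.83) in Smad7-KO cells. Of 7 tested genes of the imprinted domain around Cdkn1c, 3 fell with it in unstimulated Smad7-KO cells, Slc22a18 (-1.19), Tssc4 (-1.07) and Cd81 (-0.65). The 1 that rose was Kcnq1ot1, the antisense RNA that silences the domain (0.84, edgeR adjusted p = 0.0394) in unstimulated cells. It was not among the calls with the length trend removed (0 higher and 3 lower). After TGF-β1 only Slc22a18 was called (-0.83), and TGF-β1 itself called 0 of the 7. Of 10 ATF4 stress targets, a group that shares Sesn2, 4 fell in unstimulated Smad7-KO cells, Asns (-0.71), Chac1 (-0.87), Atf4 (-0.76) and Ddit3, and 3 after TGF-β1, Chac1 (-1.45), Trib3 (-0.98) and Asns (-0.62), with 0 higher. Without unstimulated control library 2, 3 and 6 fell, where 3013 and 4465 of all 15510 genes were called. Once the length trend was removed 4 fell in each contrast, and 1 rose in unstimulated cells, Atf3 (0.31, edgeR adjusted p = 0.0344). TGF-β1 called 0 of them in controls and Slc7a11 (-0.96) in Smad7-KO cells.

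**Figure D5:**
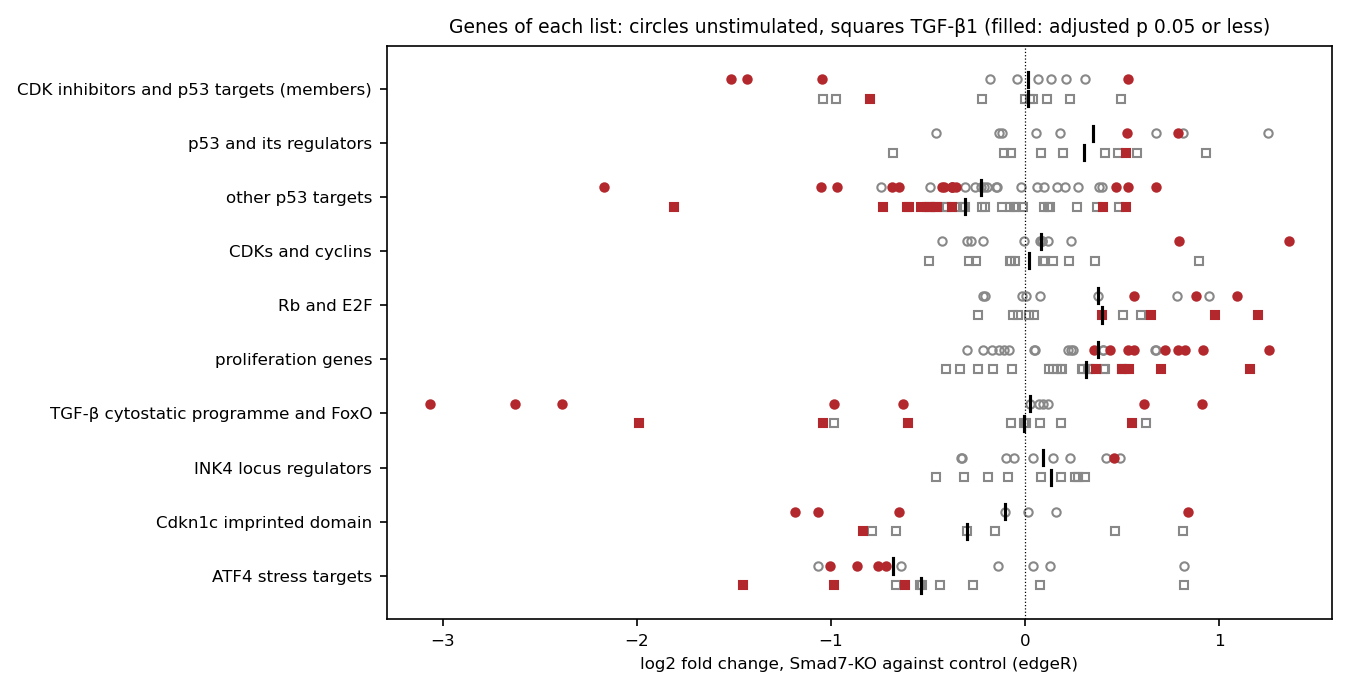
Log2 fold change between Smad7-KO and control cells (x axis, edgeR) of the tested genes of 10 lists (y axis), with circles for unstimulated and squares for TGF-β1-stimulated cells, filled at an adjusted p of 0.05 or less and a black bar at each median. Of 24 proliferation genes, 9 and 5 were called higher and 0 lower, while the 10 members center on 0.01 in both contrasts.

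The genes most like each member over the 12 libraries were found by the mean absolute difference of centered log2 CPM among 12203 genes with an average of at least 1 on that scale. Cdkn2a was closest to Sepw1 and S100a6 (0.09 and 0.10 on the log2 scale), and Cdkn2b to Gpx8 and Crip2 (0.07 and 0.08), where the median gene differed by 0.63 and 0.49. Trp53inp1 was closest to Fndc3a and Gatsl2 (both 0.07) and Cdkn1b to Znrf2 and Zadh2 (both 0.08). For Cdkn2c they were Cklf (0.08) and Gm10134 (0.09). The nearest genes of a steady gene are steady by the method. They were Ddx23 and Wbp2 for Cdkn1a (0.03 and 0.04), Ppp4r1 and Dhx57 for Mdm2 (0.02 and 0.04), Stau2 and Dcaf6 for Ccng1 (0.02 and 0.05), and Scaf1 and Epn1 for Sesn2 (both 0.04). Cdkn1c was too low to enter. The libraries share their depth and length trends, so this likeness is a description only.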

How the data were processed

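The 12 libraries were sequenced from poly(A)-selected RNA. The authors deposited gene counts and FPKM for 35275 genes on mm10 (GRCm38.p6). The submitters' processing notes name CASAVA, TopHat2 2.0, Cufflinks 2.1.1 and HTSeq 0.6.1, and the strand setting is not given in the sources used here. The deposited FPKM of the authors were checked to be the counts scaled to gene length and to the library's total, within 0.1% for 35275 of 35275 genes. Totals were 19056916 to 25371321 counts, and the lowest count of a member was 10 (Cdkn1c).

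Counts were fitted with edgeR 4.0.16 in R 4.3.3 over all 12 libraries (TMM normalization, filterByExpr with a minimum count of 10, robust quasi-likelihood test), with contrasts between conditions and Benjamini-Hochberg adjustment over 15150 genes. Log2 changes carry standard errors and 95% intervals. Alternatives were DESeq2 1.42.0, limma 3.58.1 on log2(FPKM + 1), other samples, scaling and filters, a replicate block, subtraction of a loess curve on log gene length fitted per library (span 0.3), and leaving out libraries. The procedures were tested on simulated counts. These had the same spread in all genes and conditions and no trend on gene length, unlike the data, so the handling of unequal spread and of length was not tested. The members and gene lists were chosen with earlier results of these data known. All 10 members are named, and of each other list up to 3 called genes with the smallest adjusted p in each comparison, plus Trp53, Mdm4, Myc and Cdkn2d. Further genes of lists with 5 or fewer calls in 1 direction were named after their values were seen. The values of 1 listed gene are not reported here. P-values measure the spread between libraries, which may be partly technical.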

Additional observations from a re-analysis of the deposited data

How the results depend on the processing

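The number of the 10 genes called in unstimulated Smad7-KO against control cells was 4 by the reported fit, 5 by DESeq2 and 1 (Cdkn1c) by edgeR on the libraries of the comparison alone. After TGF-β1 the reported 1 became 4 by DESeq2, 3 on the libraries of the comparison alone, 3 with the length trend removed, 3 with that trend removed and the replicate block, and 5 with that trend removed and unstimulated control library 2 left out, which was chosen after seeing the data. For TGF-β1 in controls the reported 1 became 2 by DESeq2, 0 on the libraries of the comparison alone, 0 without a filter on low counts, 0 by limma on log2(FPKM + 1), 3 with the length trend removed with or without the replicate block, and 2 with that trend removed and library 2 left out. For TGF-β1 in Smad7-KO cells it became 2 by DESeq2, 3 on the libraries of the comparison alone, 2 by limma, and 3 in each fit with the length trend removed. Leaving out each library gave 2 to 6, 0 to 3, 0 to 3 and 0 to 3 calls in these comparisons, and 0 for the interaction in every setting. The count was 2 without unstimulated Smad7-KO library 2 in the first. The second gave 3 without unstimulated control library 2 or 3, and 0 without stimulated control library 2 or 3 or any stimulated Smad7-KO library. The third gave 3 without unstimulated control library 3, and 0 without stimulated control library 1 or 3, any unstimulated Smad7-KO library or stimulated Smad7-KO library 1. The fourth gave 2 and 3 without unstimulated control library 2 and 3, and 0 without Smad7-KO library 1 or 3 unstimulated, or 1 or 2 stimulated. Of all genes, 3907, 1962, 1268 and 1550 were called as reported, 660, 4453, 391 and 3792 on the libraries of each comparison alone, and 4363, 3506, 2203 and 2460 with the length trend removed. Leaving out unstimulated control library 2 gave 3013, 4465, 1690 and 2535, and with the length trend removed as well 4388, 5560, 2784 and 3734. Fitting each comparison on its own libraries was not run for the interaction, which needs all of them.

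No consistent pairing of the libraries by replicate number was seen. Same-numbered libraries correlated at -0.50 to 0.76, and not every library correlated best with its own number. These correlations keep each library's length trend, so they do not settle whether same-numbered libraries shared a culture or batch. With the replicate number as a block, 3, 1, 1, 1 and 0 genes were called, and Trp53inp1 lost its call in unstimulated cells (edgeR adjusted p = 0.0623). Of the alternative log2 changes of single genes, 637 kept direction and side of the threshold, 42 gained a call, 27 lost one and 39 changed sign, all of them from values not called. The cause was not tested.

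Signs changed as follows on the log2 scale. For Cdkn1a with TGF-β1 in controls the value was 0.0072 without a filter, 0.023 by limma, 0.034 with the length trend removed and 0.035 with the replicate block added. By limma, Smad7-KO against control after TGF-β1 gave -0.041 for Cdkn1a, -0.0022 for Mdm2 and -0.013 for Sesn2. With the length trend removed, Sesn2 with TGF-β1 in controls was at -0.051, with the block added at -0.049 and with library 2 also left out at -0.11. The interaction was then 0.073 for Cdkn1b (0.073 with the block) and 0.14 for Trp53inp1 (0.13 with the block, 0.029 with library 2 left out). With the trend removed and library 2 left out, Cdkn2b was at 0.081 with TGF-β1 in controls and at -0.0052 in the interaction. Leaving out 1 library gave ranges of -0.16 to 0.079 for Sesn2 and -0.058 to 0.33 for Cdkn2c in unstimulated Smad7-KO cells, and -0.033 to 0.056 for Cdkn1a after TGF-β1. With TGF-β1 in controls they were -0.052 to 0.036 for Cdkn1a, -0.35 to 0.091 for Cdkn2b, -0.11 to 0.12 for Sesn2 and -0.062 to 0.030 for Ccng1. In Smad7-KO cells they were -0.018 to 0.18 for Cdkn2b and -0.044 to 9.16e-04 for Mdm2. For the interaction they were -0.28 to 0.089 for Trp53inp1, -0.0057 to 0.85 for Cdkn2a and -0.019 to 0.41 for Cdkn2b.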
